A study of Schizosaccharomyces pombe with 6 samples.

Results

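The genes described here are 9 genes of autophagy and of vacuolar protein breakdown in fission yeast (*Schizosaccharomyces pombe*), taken by their identifiers from the 7001 genes of the deposited tables: *atg1* (SPCC63.08c), *atg13* (SPAC4F10.07c), *vps34* (SPAC458.05), *atg2* (SPBC31E1.01c), *atg7* (SPBC6B1.05c), *atg5* (SPBC4B4.10c), *atg8* (SPBP8B7.24c), *isp6* (SPAC4A8.04) and *psp3* (SPAC1006.01). All 9 passed the filter on low values in every comparison. RNA was sequenced from h- cells held for 4 hours in minimal medium without nitrogen at 25 °C, in 3 groups of 2 libraries. The first group is labelled as carrying igo1::natMx6 together with nmt41-GST-pab1-KanMx6, and as *pab1* repression. By this label the Endosulfine gene is disrupted. *pab1*, the gene of the B55 regulatory subunit of the phosphatase PP2A, stands under a promoter shut off by thiamine. The labels name thiamine for all strains. This first group is called *pab1*-repressed below. The second is labelled igo1::kanMX6 and is called igo1Δ below, and the third is the wild-type (WT) strain 972. All 6 libraries were therefore starved, and no library of growing cells is compared here. The labels do not say whether replicates came from separate cultures, so p-values measure the spread between these libraries, which may be technical.

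Autophagy carries cytoplasm to the vacuole in double-membraned vesicles, where it is broken down, and nitrogen starvation is its classic trigger in yeasts. The Atg1 kinase complex starts vesicle formation, the Vps34 lipid kinase and Atg2 build the membrane, a ubiquitin-like conjugation system that includes Atg7 and Atg5 attaches Atg8 to it, and vacuolar proteases degrade what is delivered. The breakdown products supply starved cells with amino acids.

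In the libraries labelled igo1Δ, transcripts of 7 of the 9 genes were called lower than in WT and none higher (edgeR, adjusted p under 0.05), where 30.1% of all genes tested were called lower and 29.6% higher. *atg8* fell furthest, to 48.1% of WT, followed by *psp3* at 54.6% and *isp6* at 61.6%. The kinase gene *atg1* did not follow them, at 98.2% of WT. In the libraries labelled *pab1*-repressed, none of the 9 passed the test against either other group (limma). Of all genes tested, only 9.03% passed against the libraries labelled igo1Δ and 0.0331% against WT. The 2 libraries of the *pab1*-repressed group differed from each other by up to 2.18-fold in these 9 genes.

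The promoter stretches of *atg8* and *isp6* are shown because both genes fell in the libraries labelled igo1Δ, *atg8* the furthest of the members, and *isp6* had the highest level. Each is the 250 bases before the annotated gene start in RefSeq ASM294v3, 5′ to 3′ on the strand of the gene. Capitals mark GATAAG, the core read by GATA factors, found here as its reverse complement CTTATC, and CTTTGTT, the core of the box bound by the transcription factor Ste11.
atg8: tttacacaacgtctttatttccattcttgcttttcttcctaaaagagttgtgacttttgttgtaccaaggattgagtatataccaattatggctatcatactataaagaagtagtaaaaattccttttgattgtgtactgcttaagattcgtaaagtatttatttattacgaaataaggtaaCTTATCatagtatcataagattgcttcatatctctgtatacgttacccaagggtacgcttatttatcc
isp6: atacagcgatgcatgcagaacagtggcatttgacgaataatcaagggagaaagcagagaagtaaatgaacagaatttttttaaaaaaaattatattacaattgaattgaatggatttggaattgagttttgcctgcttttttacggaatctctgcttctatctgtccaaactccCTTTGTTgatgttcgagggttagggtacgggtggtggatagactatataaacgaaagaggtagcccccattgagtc
*atg8* lies on the minus strand of chromosome II, and *isp6* lies on the plus strand of chromosome I. The first capital stands at position -68 in *atg8* and -76 in *isp6*, counted from the gene start. Over windows of 250 bases before to 50 after the start, searched on both strands, GATAAG was in 1 of 8 members examined, against 11.6% of 5111 coding genes, and CTTTGTT was in 1 of 8, against 10.4%. The letters TGACGT, the core bound by Atf1-type factors, were in 0 of 8 windows (5.91% of all), and the stress element letters CCCCT were in 0 of 8 (10.4% of all). The GATAAG match was the one in *atg8* and the CTTTGTT match the one in *isp6*, each near its share of all coding genes. The share of coding genes with a match to any of these motifs was not computed. A match is a run of letters and not a measured binding site.

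The libraries held between 14791399 and 18809513 reads on genes, and the members between 622 reads (*atg5*) and 229929 reads (*isp6*) in a library. *igo1* itself kept 1693 and 1478 reads in the libraries labelled igo1Δ and 2307 and 5035 in those labelled *pab1*-repressed, against 1876 and 2098 in WT, so the reads do not show the deletion in either group (log2 fold change -0.23 between the libraries labelled igo1Δ and WT, adjusted p = 0.0264, edgeR), and directions below go by the labels. The labels do not say which part of *igo1* was replaced. *pab1* had 2296 and 1078 reads in the *pab1*-repressed libraries, 2182 and 1819 in the libraries labelled igo1Δ and 2853 and 3027 in WT, and the *pab1*-repressed libraries were not called lower against either group (log2 fold change -0.73, adjusted p = 0.199, and -1.15, adjusted p = 0.226, limma). The thiamine-repressed gene *nmt1* had 66 and 49 reads in the *pab1*-repressed libraries, against 146558 to 202812 in the other 4, although the labels name thiamine for all strains, so repression of *pab1* and the thiamine response cannot be told apart between these groups. The 4 M-cell genes that an h- strain expresses (*mfm1*, *mfm2*, *mfm3* and *mam2*) summed to 149 and 116 reads in the libraries labelled igo1Δ, against 12853 to 16379 in the other 4. None of the 4 was at 0, and the P-cell genes *map2* and *map3* summed to between 229 and 427 reads in every library. The part of this M-cell difference in the results on the 9 genes was not tested.

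The 9 genes covered a wide range of levels, here given as RPKM, the CPM of a gene (its reads relative to the TMM-scaled total of the library) divided by its exon length in kilobases, a scale on which genes can be compared. The serine protease gene *isp6*, whose product degrades autophagic bodies in the vacuole, was at 1876 and 3318 RPKM in the *pab1*-repressed libraries, 3661 and 4363 RPKM in the libraries labelled igo1Δ and 6604 and 6282 RPKM in WT. Its mean ranked 8 of 5112 coding genes in the *pab1*-repressed libraries, 13 in the libraries labelled igo1Δ and 5 in WT. *psp3*, which encodes a second vacuolar serine protease of the same kind, averaged 249 RPKM in the *pab1*-repressed libraries, 277 RPKM in the libraries labelled igo1Δ and 501 RPKM in WT. Both protease genes stood above all 7 autophagy genes in every library.

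In the *pab1*-repressed libraries the replicates of each neighbouring pair from *atg8* (111 RPKM) down to *atg2* (42.7 RPKM) overlapped. In the libraries labelled igo1Δ, *atg1* stood next below the proteases at 158 RPKM and *atg8* followed at 80.0 RPKM, with no overlap between them. In WT the order below the proteases was *atg8* at 164 RPKM and *atg1* at 159 RPKM, whose replicates overlapped, then *atg13* at 85.7, *atg5* at 52.2, *atg2* at 47.1, *atg7* at 45.6 and *vps34* at 44.9 RPKM. The WT replicates of *atg7* and *vps34* also overlapped, and the other neighbours in the WT order did not. *vps34* had the lowest mean of the 9 in all 3 groups.

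**Figure D1:**
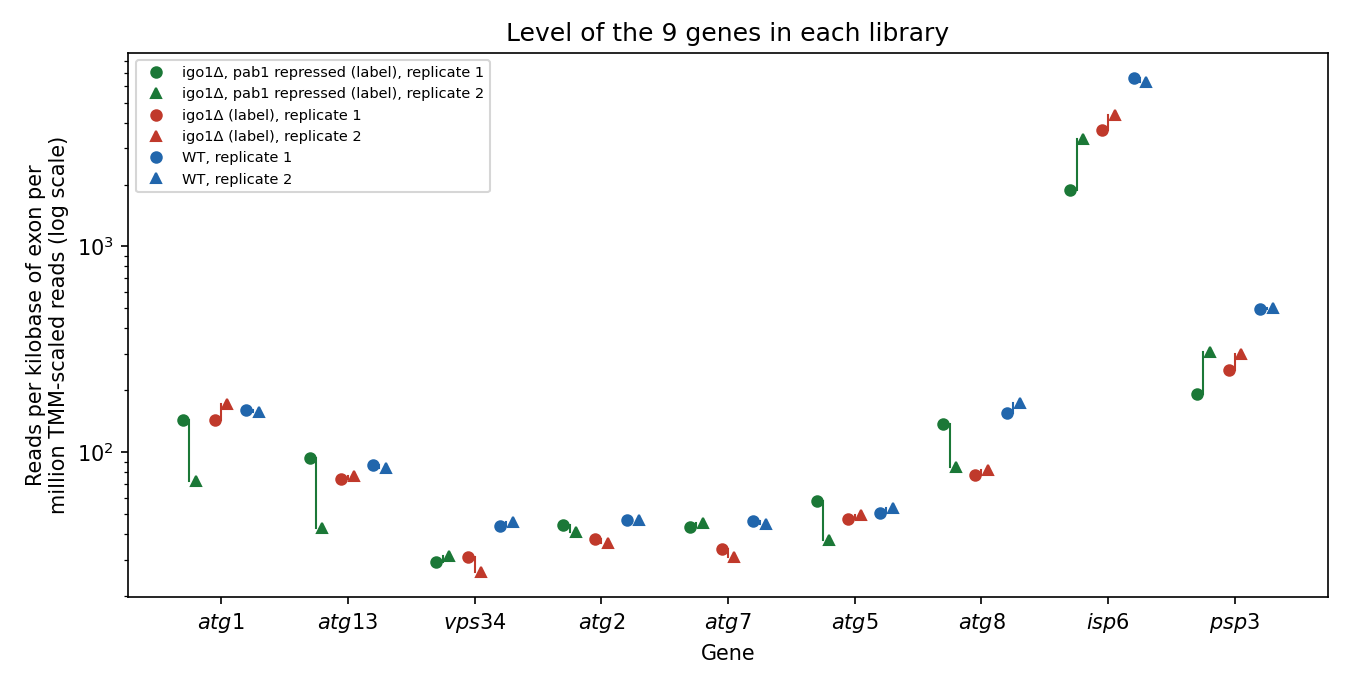
Level of each of the 9 genes in each of the 6 libraries, in RPKM on TMM-scaled library sizes, on a log axis; circles are replicate 1, triangles replicate 2, and the line joins the replicates. *isp6* stands highest in every group, between 1876 and 6604, and the *pab1*-repressed replicates of *atg13* and *atg1* lie furthest apart.

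The comparison of the libraries labelled igo1Δ with WT asks how the starvation transcriptome differs without Endosulfine, the inhibitor of PP2A-B55. These groups stand in different deposited tables, so reads recovered from the tables were compared with edgeR's quasi-likelihood test with Benjamini-Hochberg adjustment over 5931 genes. Of the 9 members 7 were called lower and 0 higher, where 30.1% of all genes tested were called lower and 29.6% higher (59.7% in either direction; 49.6% of these calls were higher, and 39.2% under upper-quartile scaling). The median log2 fold change of the members was -0.50, against -0.03 over all genes tested. In 8 of the 9, both libraries labelled igo1Δ lay below both WT libraries, as they did in 42.0% of all genes tested. The values per library below are in CPM, which compare libraries and not genes.

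Among the genes that start autophagy, *atg1* encodes the protein kinase and *atg13* its regulatory partner. *atg1* had 401 and 479 CPM in the libraries labelled igo1Δ, against 447 and 439.6 in WT. The groups overlapped, and the log2 fold change was -0.03 (SE 0.09, adjusted p = 0.823). *atg13* had 208 and 214 CPM in the libraries labelled igo1Δ, against 244 and 236 in WT. Here the groups did not overlap, and the gene was called lower by a small margin (log2 fold change -0.20, SE 0.07, adjusted p = 0.0312, edgeR).

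Of the genes that build the membrane, *vps34* encodes the kinase that makes phosphatidylinositol 3-phosphate, and *atg2* encodes a lipid transfer protein. *vps34* had 83.3 and 70.9 CPM in the libraries labelled igo1Δ, against 119 and 123 in WT. *atg2* had 192 and 184 CPM in the libraries labelled igo1Δ, against 238 in each WT library. Both genes were lower in every library labelled igo1Δ than in either WT library. The log2 fold change was -0.66 for *vps34* (SE 0.09, adjusted p = 0.00037, edgeR) and -0.35 for *atg2* (SE 0.07, adjusted p = 0.00232, edgeR).

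The conjugation genes differed most among themselves. *atg7*, which encodes the activating enzyme of the system, had 72.3 and 66.0 CPM in the libraries labelled igo1Δ, against 99.0 and 95.1 in WT (log2 fold change -0.50, SE 0.08, adjusted p = 0.00072, edgeR). *atg5*, whose product is part of the ligase that acts on Atg8, had 44.5 and 47.0 CPM in the libraries labelled igo1Δ, against 47.9 and 50.4 in WT. The *atg5* groups did not overlap, but the difference of -0.12 on the log2 scale (SE 0.08) did not pass the test (adjusted p = 0.242, edgeR). *atg8*, which encodes the ubiquitin-like protein attached to the vesicle membrane, had 65.4 and 69.5 CPM in the libraries labelled igo1Δ, against 131 and 146 in WT. Its log2 fold change of -1.05 (SE 0.08, adjusted p = 1.08e-05, edgeR) was lower than those of the other 8 members and than those of all but 5.70% of the genes tested.

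Both vacuolar protease genes among the members fell. *isp6* had 7834 and 9337 CPM in the libraries labelled igo1Δ, against 14133 and 13444 in WT. *psp3* had 468 and 559 CPM in the libraries labelled igo1Δ, against 923 and 934 in WT. Every library labelled igo1Δ was below both WT libraries, and in each gene its replicate 2 was 1.19-fold above its replicate 1. The log2 fold change was -0.70 for *isp6* (SE 0.19, adjusted p = 0.0122, edgeR) and -0.87 for *psp3* (SE 0.10, adjusted p = 0.00015, edgeR). As a share of all reads on genes, *isp6* took 0.693% and 0.736% in the libraries labelled igo1Δ, against 1.49% and 1.43% in WT.

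These calls are limited by the small number of libraries. Without either WT replicate 5 of the 7 calls were left, *isp6* and *atg13* being lost, and when all 6 libraries shared 1 estimate of the spread only *vps34* was called. The fit of all 6 libraries called 5.9% of all genes tested lower and 8.34% higher. In RNA from whole cultures, fewer cells of a type and less RNA per cell cannot be told apart.

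**Figure D2:**
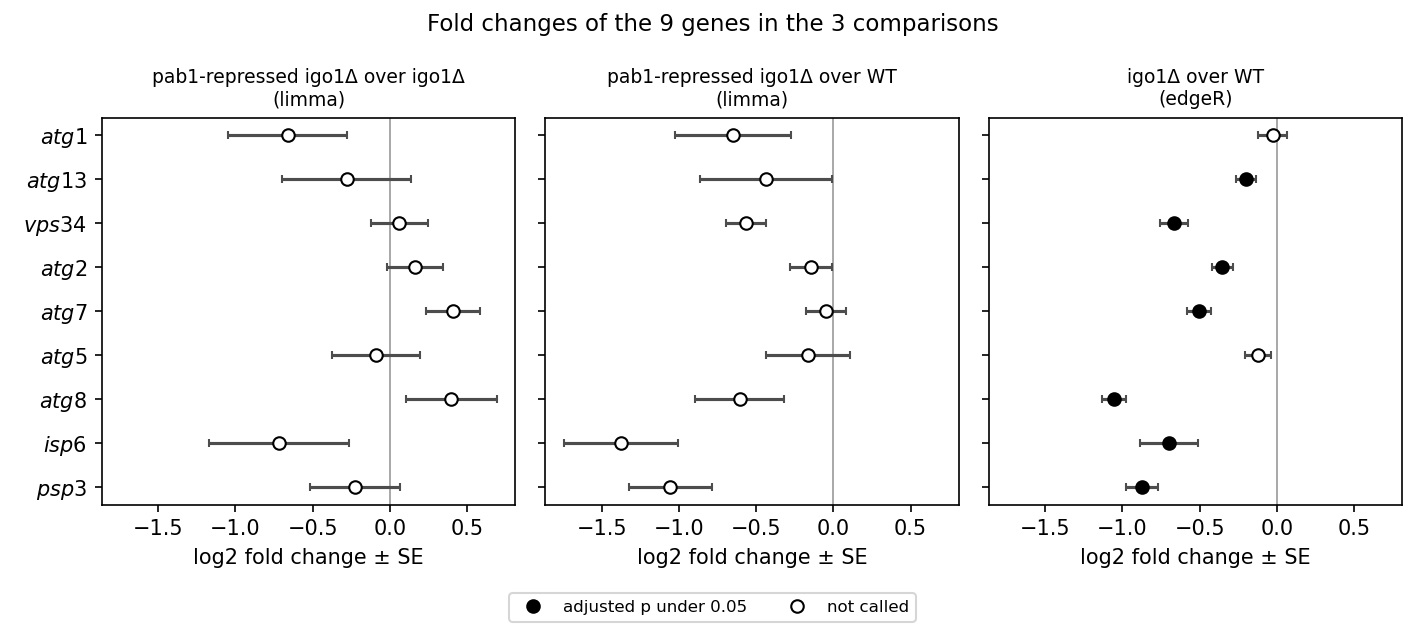
Log2 fold change of each member (x axis, error bars ± SE of the fit) in the 3 comparisons; filled points passed an adjusted p of 0.05 over all genes tested and open points did not. The 7 filled points all lie below 0 and all stand in the comparison of the libraries labelled igo1Δ with WT, with *atg8* furthest out at -1.05.

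Repression of *pab1* is meant to lower the phosphatase that Endosulfine inhibits, and the next comparison asks how transcripts of cells labelled igo1Δ differ when it is applied. Both groups stand in 1 deposited table, and limma was run on log2(normalized count + 1), which understates changes of low genes. Of 6046 genes tested 2.91% were called higher and 6.12% lower in the *pab1*-repressed libraries (9.03% in either direction). Of the calls 32.2% were higher, and 50.4% under upper-quartile scaling. Of the 9 members 0 were called in either direction, and 0 had an unadjusted p under 0.05. Fitted to the libraries of these groups alone, edgeR and DESeq2 also called 0 members. With all 6 libraries in the fit, edgeR called *atg7* higher, where 12.9% of all genes tested were called higher and 14.5% lower. The median log2 fold change of the members was -0.09, against 0.00 over all genes tested, with 4 positive and 5 negative.

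The members did not lie on 1 side of the libraries labelled igo1Δ. *atg8* had 116 and 71.7 CPM in the *pab1*-repressed libraries, against 65.4 and 69.5 in the libraries labelled igo1Δ. *atg7* had 92.1 and 96.2 CPM in the *pab1*-repressed libraries, against 72.3 and 66.0 in the libraries labelled igo1Δ. Both genes were higher in every *pab1*-repressed library than in either library labelled igo1Δ. So was *atg2*, with 225 and 207 CPM in the *pab1*-repressed libraries against 192 and 184. Of all genes tested, 34.6% lay above in this way. On the scale of the deposited table *atg8* overlapped, with 1979 and 1193 normalized counts against 1126 and 1206. The 95% interval of the log2 fold change ran from -0.37 to 1.17 for *atg8* (estimate 0.40, adjusted p = 0.386, limma), from -0.05 to 0.87 for *atg7* (estimate 0.41, adjusted p = 0.182, limma) and from -0.30 to 0.63 for *atg2* (estimate 0.16).

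The protease gene *isp6* and the kinase gene *atg1* had lower values in every *pab1*-repressed library, as did 32.9% of all genes tested. *isp6* had 4015 and 7100.3 CPM there, against 7834 and 9337 in the libraries labelled igo1Δ. Its log2 fold change of -0.72 had a 95% interval from -1.90 to 0.47 (adjusted p = 0.327, limma), which holds 0 as well as falls larger than the estimate. *atg1* had 398 and 202 CPM in the *pab1*-repressed libraries, against 401 and 479 in the libraries labelled igo1Δ, with a log2 fold change of -0.66 (95% interval -1.67 to 0.34). The groups overlapped in the other 4 members, *atg13* (-0.28), *vps34* (0.06), *atg5* (-0.09) and *psp3* (-0.22, all log2 fold changes).

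Against WT, the *pab1*-repressed libraries had a negative log2 fold change in all 9 members, and none was called. Over 6035 genes limma called 0.0331% lower and 0% higher, so hardly any gene passed in this comparison. Among the members 3 had an unadjusted p under 0.05, 0 were called by edgeR and 1, *isp6*, was called by DESeq2 (log2 fold change -1.31, adjusted p = 0.0138; over all alternatives its adjusted p ran from 1.51e-05 to 1). The members' median was -0.56, against -0.01 over all genes tested. In 6 of the 9, both *pab1*-repressed libraries lay below both WT libraries, as they did in 28.0% of all genes tested. This comparison shares its *pab1*-repressed libraries with the one before and its WT libraries with the first one.

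The protease genes were furthest from WT. *isp6* had 4015 and 7100.3 CPM in the *pab1*-repressed libraries, against 14133 and 13444 in WT. *psp3* had 354 and 567 CPM in the *pab1*-repressed libraries, against 923 and 934 in WT. In both genes each *pab1*-repressed library was below both WT libraries. The log2 fold change was -1.37 for *isp6* (95% interval -2.40 to -0.35, adjusted p = 0.216, limma) and -1.06 for *psp3* (-1.80 to -0.31, adjusted p = 0.205, limma).

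*vps34*, with 79.4 and 85.0 CPM in the *pab1*-repressed libraries against 119 and 123 in WT, also had an unadjusted p under 0.05 (log2 fold change -0.56, 95% interval -0.93 to -0.20, adjusted p = 0.194, limma). Its 2 *pab1*-repressed replicates were close, and both lay below WT. *atg8* had 116 and 71.7 CPM in the *pab1*-repressed libraries, against 131 and 146 in WT, a log2 fold change of -0.61 (95% interval -1.41 to 0.19). *atg1* stood at -0.65 (-1.69 to 0.40), and *atg2* at -0.15 (-0.52 to 0.23), also without overlap of the groups. The groups overlapped in *atg13* (-0.43), *atg7* (-0.05) and *atg5* (-0.17).

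The replicates of the *pab1*-repressed group stood further apart than those of the other groups. The log2 difference between replicates had an SD over genes of 1.03 in that pair, 0.30 in the libraries labelled igo1Δ and 0.26 in WT. The members fell into 3 sets within that pair. Replicate 1 exceeded replicate 2 by 2.18-fold in *atg13*, 1.96-fold in *atg1*, 1.61-fold in *atg8* and 1.54-fold in *atg5*. Replicate 2 exceeded replicate 1 by 1.77-fold in *isp6* and 1.6-fold in *psp3*. *vps34*, *atg2* and *atg7* differed by at most 1.09-fold. So the 2 protease members were higher in replicate 2, and *atg1* and *atg13* in replicate 1 with the conjugation members *atg8* and *atg5*. Among all genes in this pair, from 65.2% (against *atg5*) to 86.3% (against *atg13*) had a smaller gap than these members. Further vacuolar hydrolase and cargo genes went both ways, as *cpy1* (145315 reads in replicate 1, 89326 in replicate 2) and *ape4* (2269 and 2718). Whether genes split by role was not tested.

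The calls changed with the library that stood for the group. Without replicate 1 of the *pab1*-repressed pair, limma called 8 of the 9 members lower than WT, all but *atg7*. Without replicate 2 it called 5 lower (*atg1*, *vps34*, *atg8*, *isp6* and *psp3*) and *atg13* higher (log2 fold change 0.14). These fits called 36.2% of all genes lower and 33.7% higher without replicate 1, and 30.2% and 29.1% without replicate 2. Against the libraries labelled igo1Δ, 4 members were called without replicate 1 (3 lower and 1 higher) and 3 without replicate 2 (1 lower and 2 higher), where 33.5% of all genes were called lower and 30.9% higher without replicate 1, and 29.5% and 24.4% without replicate 2. In these fits the lone *pab1*-repressed library is assumed to vary like the other group. Over the fits that left out 1 library of either group, *atg13* and *atg5* changed sign against WT. The log2 fold change stayed negative in *vps34* (-0.60 to -0.53), *isp6* (-1.77 to -0.98), *psp3* (-1.38 to -0.73), *atg1* (-1.15 to -0.15) and *atg8* (-0.97 to -0.25). It also did in *atg2* (-0.22 to -0.07) and *atg7* (-0.08 to -0.02). With both libraries of each group in the fit, none was called.

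**Figure D3:**
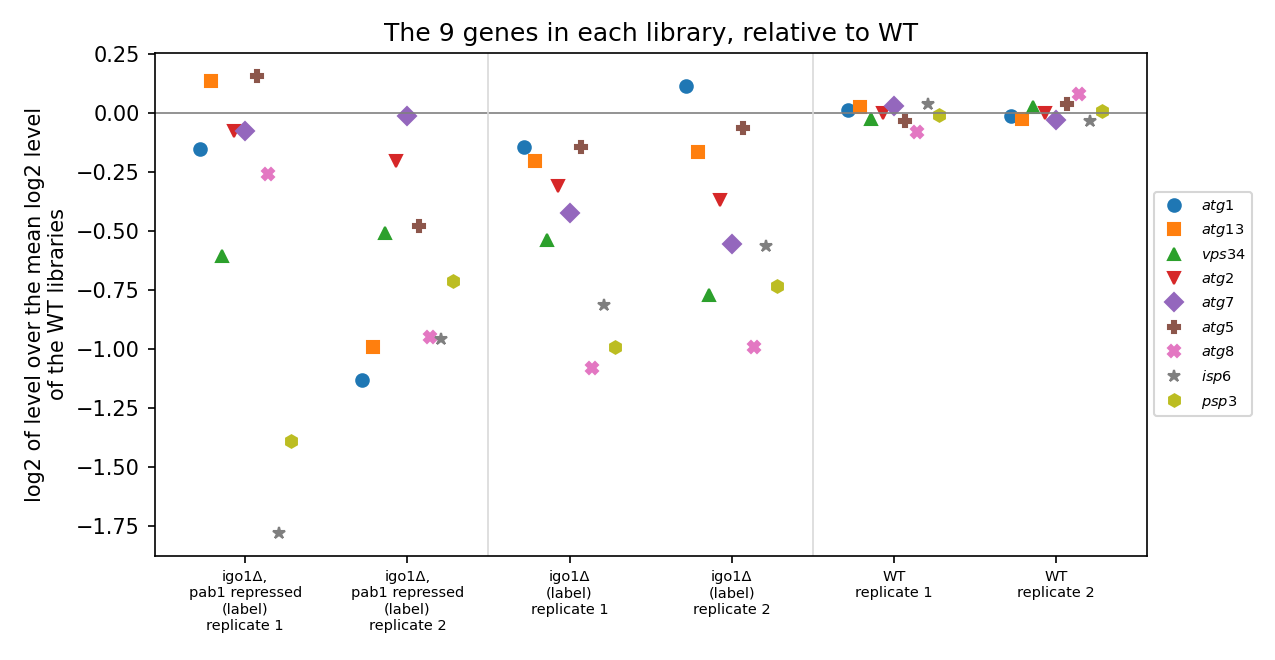
Level of each member in each library, as log2 of the TMM-scaled level minus the mean log2 level of the WT libraries (y axis); libraries run along the x axis and each symbol is a gene. The 9 genes of the *pab1*-repressed replicate 1 run between -1.78 (*isp6*) and 0.16 (*atg5*), those of replicate 2 between -1.13 (*atg1*) and -0.01 (*atg7*), and the WT points stay within 0.08 of 0.

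Of 51 further autophagy and vacuole genes listed by role, 50 were matched to the tables and tested. In the libraries labelled igo1Δ 26 of them were called lower than WT and 5 higher, where 30.1% of all genes tested were called lower and 29.6% higher, with a median log2 fold change of -0.24, against -0.03 over all genes tested and -0.50 in the 9 members. Of 8 genes for membrane and lipid supply 6 were called lower and 0 higher (median -0.60), and of 5 conjugation genes 3 were called lower and 1 higher (median -0.71). Of 5 receptor and fusion genes 3 were called lower and 0 higher (median -0.45), including *fsc1*, needed for fusion of the vesicles with the vacuole, at -0.80. The fit of all 6 libraries called 5.9% of all genes tested lower and 8.34% higher. With all 6 libraries in 1 fit 4 of the 50 were called lower and 0 higher, and without a WT replicate 0 or 1 was called higher.

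Partners of named members moved in several of these lists. *atg11*, which encodes a scaffold of the Atg1 complex, had 1821 and 1592 reads in the libraries labelled igo1Δ, against 2952 and 3235 in WT, a log2 fold change of -0.76 (adjusted p = 3.86e-05, edgeR). *atg6*, the gene of the Vps34 partner known as Beclin in animals, was at -0.48 (adjusted p = 0.0028, edgeR). *atg18b*, for a phosphoinositide-binding protein, was at -0.84. *atg12*, whose product is joined to Atg5, was at -0.88 (SE 0.24), while *atg3*, for the enzyme that transfers Atg8 to lipid, rose by 0.38 (SE 0.09), a call lost without either WT replicate.

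Of 13 genes of the V-ATPase, the proton pump that acidifies the vacuole, 5 were called lower and 3 higher (median -0.02), beside 30.1% and 29.6% of all genes, with *vma5* at -0.44 and *vma1* at 0.34, and the *vma1* call was lost without either WT replicate. Of 5 vacuolar hydrolase and cargo genes 2 were called lower and 0 higher (median -0.12), among them the aminopeptidase gene *ape4* at -0.76. Of these 5, 3 had a negative log2 fold change. *cpy1* of the same list stood at 0.37 and was not called (adjusted p = 0.0907, edgeR). It had 101903 and 117633 reads in the libraries labelled igo1Δ, against 90196 and 91704 in WT. Of 7 vacuole docking genes 2 were called lower and 1 higher, with *vps33* at -0.33 and *vps11* at 0.22 (log2 fold changes, edgeR). The *vps11* call (adjusted p = 0.0492) was lost under upper-quartile scaling, limma and DESeq2, and without either WT replicate or igo1Δ replicate 1. Between the *pab1*-repressed libraries and those labelled igo1Δ, the 50 had a median log2 fold change of 0.01, against 0.00 over all genes tested. The list medians ran from -0.34 (vacuolar hydrolases and cargo) to 0.81 (conjugation). In this comparison 0 of the 50 were called higher and 1 lower in the *pab1*-repressed libraries, *vma1*, at -1.19 (SE 0.20, adjusted p = 0.0371, limma). That call was lost without either library labelled igo1Δ (adjusted p = 0.317 and 0.452). Against WT, 0 of the 50 were called in either direction, and DESeq2 called 1 lower.

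**Figure D4:**
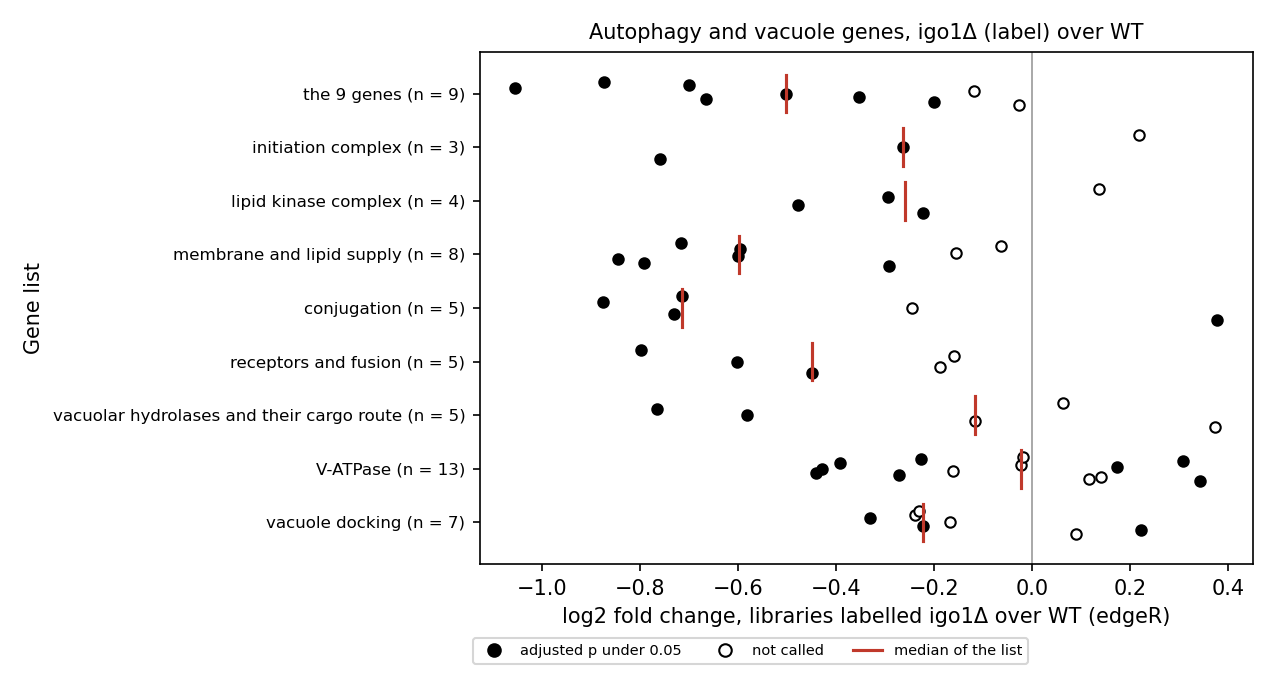
Log2 fold change of the libraries labelled igo1Δ over WT (x axis, edgeR) for the 9 genes and for 50 further genes in 8 lists (rows); filled points passed an adjusted p of 0.05, and the line is the median of a list. Medians run between -0.71 (conjugation) and -0.02 (V-ATPase), and the 9 genes have a median of -0.50.

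*isp6* had the widest range of the members over the 6 libraries, 1.82 on the log2 scale. By Pearson correlation of log2 levels over these libraries, the genes whose pattern was most like it among 5444 were *fim1* (r = 0.993), which encodes the actin-bundling protein fimbrin, *glo2* (r = 0.993), *mmc1* (r = 0.992), *dsc3* (r = 0.988) and *lsc2* (r = 0.986). *psp3* ranked 51 (r = 0.948), and *vps34* was next among the members (r = 0.709). The 6 points are 3 groups of 2 libraries, so each r rests on few independent points.

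The members also differ in lysine codons, a property of interest in a study of AAA decoding. *atg5* had AAA at 12 of its 13 lysine codons, 92.3%, a share above that of 99.2% of 4458 nuclear coding genes with at least 10 lysine codons, whose median was 64.3%. *atg8* had 76.9%, *atg7* 70.6%, *atg2* 70.5%, *vps34* 67.7%, *atg13* 64.3%, *atg1* 55.8%, *isp6* 52.6% and *psp3* 45.5%. The 2 proteases thus had the lowest shares of the 9. *atg5*, with the highest share, and *atg1*, at 55.8%, were the 2 members not called between the libraries labelled igo1Δ and WT. *atg8*, which fell furthest there, had 76.9%. RNA levels do not measure translation, so a link to AAA decoding was not tested.

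Other transcripts overlap these genes. All 9 have an annotated gene on the opposite strand, and 7 have an overlapping gene in the deposited tables. Another 15 overlapping genes are not in those tables, among them SPNCRNA.6234, opposite 68.9% of the exons of *atg8*. Whether counting used the strand of the reads is not given in the sources used here, so reads of overlapping genes may not be separable. *mde4*, which lies opposite 73.9% of the exons of *atg7*, had 230 and 242 reads in the libraries labelled igo1Δ, against 226 and 220 in WT (log2 fold change 0.18, not called). *rnf10*, opposite 15.7% of *atg8*, stood at 0.07 on the log2 scale, where *atg8* itself was at -1.05, and SPNCRNA.834, on the strand of *isp6* and covering 3.27% of it, rose by 0.50 while *isp6* fell. No stretch of 50 bases in the 9 genes occurs elsewhere in the genome.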

How the data were processed

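RNA was sequenced after 4 hours without nitrogen in 6 libraries, 2 per group. Per the labels, a stranded total RNA kit was used on TRIzol extracts. The submitters' processing notes name FastQC 0.11.8, Trimmomatic 0.38, HISAT2 2.1.0, featureCounts (Subread 1.6.3) and DESeq2, and the build ASM294v2. The values the authors deposited in 2 tables are a normalized signal, reads per gene divided by a size factor set within each table.

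Dividing each column by its smallest positive value gave whole numbers (within 0.01) for 100% of values, taken as reads, between 14791399 and 18809513 per library. Libraries in both tables gave identical reads. The groups in different tables were compared on these reads with edgeR 4.0.16 (TMM, quasi-likelihood), the others within a table with limma 3.58.1 (trend) on log2(value + 1). Genes averaging 10 or more were tested, and a Benjamini-Hochberg adjusted p under 0.05 was called. No rank or permutation test on 2 against 2 libraries can reach that threshold. RPKM used exon lengths of ASM294v3, to which 6856 of 7001 identifiers matched. That build is not the files' build, so no coordinates are given; 1 of 51 listed genes was not matched, and *atg7* was matched by its symbol. The promoter of 1 member is not reported here.

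All 9 members are named. Of each further list, the called gene with the largest rise and the one with the largest fall in each comparison are named. *cpy1* was named in addition, after seeing the data. For *isp6*, the 5 genes of highest correlation among those averaging 50 or more reads are named. The members and lists were chosen with earlier results of these data known. Alternatives were pseudocounts of 0.1 and 10, no filter or a minimum mean of 50, edgeR or limma in the other's place, DESeq2 1.42.0 and its size factors, upper-quartile scaling, all 6 libraries in 1 fit, the replicate number as a block and each library left out; edgeR with the block in the comparisons of the *pab1*-repressed libraries was added after seeing the data. The fits were made in R 4.3.3, and tables and plots in Python 3.11.15 (pandas 2.3.3, matplotlib 3.10.9).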

Additional observations from a re-analysis of the deposited data

How the results depend on the processing

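In the comparison of the libraries labelled igo1Δ with WT, 6 of the 7 calls on the members were left under DESeq2 and under its size factors, which lost *atg13*, and 8 members were called lower under upper-quartile scaling, which added *atg5* and shifted the median of all genes to -0.14. With all 6 libraries in 1 fit, 503 genes were called higher and 356 lower, 1 member lower, and 0 further list genes higher and 4 lower. Upper-quartile scaling called 2 further list genes higher and took the share of calls that were higher to 39.2%, against 49.6%. Leaving out each library gave 1432 to 1970 genes higher and 1341 to 1948 lower, 5 to 7 members lower, and 0 to 8 further list genes higher and 19 to 30 lower. The sign of *atg1* turned with DESeq2 and its size factors (0.0029) and over leave-one-out fits (-0.15 to 0.11). The cause of these changes was not tested.

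Between the *pab1*-repressed libraries and those labelled igo1Δ, upper-quartile scaling called 289 genes and 2 further list genes higher, shifted the median of all genes to 0.23, took the share of calls that were higher to 50.4%, against 32.2%, and turned *atg5* (0.14) and *psp3* (0.0062). DESeq2 called 563 higher and 729 lower, with 3 and 2 of the further genes. All 6 libraries in 1 fit gave 777 higher and 876 lower, 1 member (*atg7*) higher, and 6 and 4 further genes. Leave-one-out fits gave 33 to 1866 genes higher and 84 to 2023 lower, 0 to 2 members higher and 0 to 3 lower, 0 to 18 further genes higher and 0 to 11 lower, and turned *atg13* (-0.86 to 0.30), *vps34* (-0.050 to 0.17), *atg5* (-0.43 to 0.24) and *psp3* (-0.55 to 0.10).

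Against WT, DESeq2 called 194 genes higher and 153 lower in the *pab1*-repressed libraries, 1 member and 1 further gene lower, and all 6 libraries in 1 fit gave 47 and 76. Upper-quartile scaling turned *atg7* (0.026). Leave-one-out fits gave 0 to 2034 genes higher and 3 to 2183 lower, 0 to 1 member higher and 0 to 8 lower, 0 to 14 further genes higher and 0 to 30 lower, a median of the members from -0.73 to -0.15, and turned *atg13* (-1.01 to 0.14) and *atg5* (-0.50 to 0.16). In all 3 comparisons the other filters, and in the limma ones the other pseudocounts, left the count of members called as it was.

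The replicate numbers do not show pairs of libraries: deviations of same-numbered libraries correlated at 0.17, -0.00 and 0.17 in the 3 comparisons, in the order above. With the replicate number as a block, *atg13* was no longer called between the libraries labelled igo1Δ and WT, which left 6 members lower. In the comparison with the libraries labelled igo1Δ the block gave 1 further list gene higher and 0 lower for the *pab1*-repressed libraries (edgeR with the block: 0 lower), *vma1* no longer being called (adjusted p = 0.0572, limma, and 0.0857, edgeR), and against WT it gave 6 genes higher and 15 lower (edgeR with the block: 2 higher), with 0 members called in either comparison.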
